A study of Mus musculus with 3 samples.

Results

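The Hox cluster genes were described in bulk RNA-seq libraries of 3 edited Dmdmdx; Pax7-nGFP myoblast lines, named 66, 67 and 72. The members were all protein-coding genes of the HoxA, HoxB, HoxC and HoxD clusters, chosen by symbol, which gave 39 of the 35562 genes in the tables. All 3 lines carry the Dmdmdx mutation, a mutation of the dystrophin gene on the X chromosome that models Duchenne muscular dystrophy, edited with CRISPR/Cas9 to restore the reading frame, and the Pax7-nGFP transgene, a nuclear green reporter under Pax7, the factor that marks satellite cells, the stem cells of muscle. The study reprogrammed fibroblasts of male embryos to iPSCs and edited them. Edited iPSCs were injected into host blastocysts, and satellite cells purified from the muscles of the chimeras were expanded as myoblasts. The lines form 1 condition, and the line was taken as the replicate. The labels give neither the chimera, the muscle, the host genotype nor the tamoxifen treatment behind each line, and nothing says that the lines came from separate animals. The control myoblasts and fibroblasts of the study were not analysed here, so no contrast between conditions was made and no p-value is given. Differences between lines rest on 1 library each.

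Hox genes encode homeodomain transcription factors that specify position along the body axis of animals. In mammals they lie in 4 clusters that arose by duplication, and genes in matching places in the clusters are paralogs, which share a number. Genes with low numbers lie at the 3′ end of a cluster and are expressed early and anteriorly in the embryo, and genes with high numbers lie at the 5′ end and are expressed later and more posteriorly, the rule known as colinearity. Connective tissue and muscle cells of adults keep part of the Hox pattern of the body region they come from, also in culture, and the HoxA and HoxD genes with high numbers pattern the limb.

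The libraries of lines 66, 67 and 72 summed to 73274315, 66972426 and 70272367 estimated counts, and values are given below in this order of lines. The level of a gene is its TPM, a share of all transcripts that is corrected for transcript length and scaled to a total of 1000000, summed over the transcripts of the gene, and means are given ± SD (n = 3). The markers fitted the labelled cell type. All 7 myoblast markers, Pax7, Myf5, Myod1, Des, Itga7, Cdh15 and Chrna1, were at 10 TPM or more in every line, and their levels summed to between 2337 and 2492 TPM. The 6 fibroblast markers summed to 4.33, 6.29 and 3.88 TPM, of which Thy1 was the highest (4.19 ± 1.40 TPM) and Dpt and Lum were at 0 counts. The 5 endothelial markers summed to 1.81, 0.726 and 1.25 TPM, and the 4 immune markers to between 2.97 and 4.31 TPM, of which Cd68 held nearly all and Adgre1 was at 0 counts. The 6 pluripotency markers, Zfp42, Dppa5a, Utf1, Lin28a, Fgf4 and Tdgf1, had at most 3 counts in every line.

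The Hox genes were led by the HoxA and HoxC clusters. Together the 39 genes held 247, 201 and 229 TPM (226 ± 22.7 TPM). HoxA held 116, 104 and 187 TPM (136 ± 45.1 TPM), and HoxC held 98.8, 90.8 and 28.0 TPM (72.6 ± 38.8 TPM). HoxB held 30.3, 4.64 and 11.1 TPM (15.3 ± 13.3 TPM), and HoxD held 1.25, 2.22 and 2.11 TPM (1.86 ± 0.532 TPM). Over all transcripts of the genes, HoxA was the highest cluster and HoxD the lowest in each of the 3 lines. HoxA and HoxC were closer to each other in lines 66 and 67 than in line 72. In protein-coding transcripts alone HoxC stood above HoxA in lines 66 and 67, although the mean over lines was higher for HoxA (92.0 against 65.7 TPM). HoxA made up 47.1%, 51.5% and 82.0% of the summed Hox level, HoxC 40.1%, 45.1% and 12.2%, HoxB 12.3%, 2.30% and 4.84%, and HoxD 0.506%, 1.10% and 0.922%. In bulk RNA, fewer cells expressing a gene and less of its RNA per cell cannot be told apart.

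**Figure D1:**
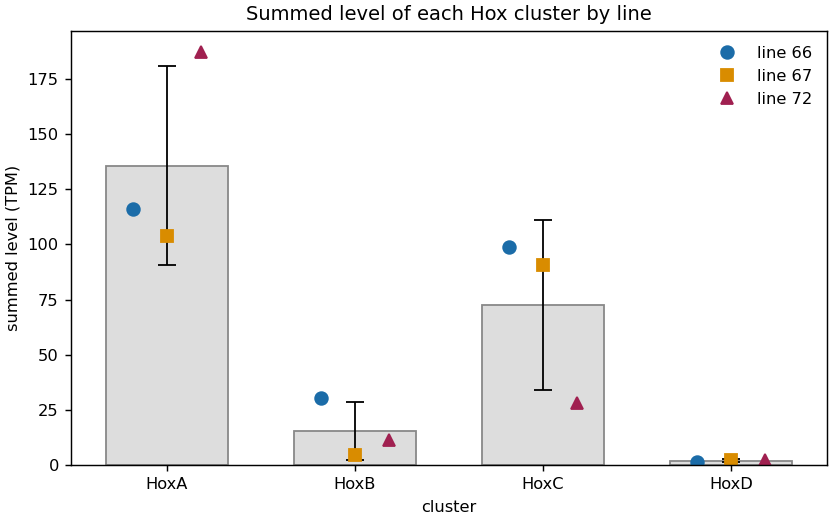
Summed level in TPM (y axis) of the genes of each Hox cluster (x axis). Grey bars are means over the 3 lines, error bars are SD, and points are the lines. HoxA was highest in line 72 (187 TPM), HoxB in line 66 (30.3 TPM), and HoxC was lowest in line 72 (28.0 TPM).

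Of the 39 Hox genes, 15 were at 1 TPM or more in every line, 29 in at least 1 line, and 8 averaged 10 TPM or more. By cluster, 9 of 11 HoxA genes, 0 of 10 HoxB genes, 6 of 9 HoxC genes and 0 of 9 HoxD genes were at 1 TPM or more in every line. More than 3 counts in every line, the limit that a count of 0 allows, were found for 31 genes, and 7 had at most 3 counts in every line. The remaining gene, Hoxd3, had 1.76, 3.51 and 2.24 estimated counts. The 8 genes that averaged 10 TPM or more were Hoxa7, Hoxa9, Hoxa10, Hoxa11, Hoxc6, Hoxc10, Hoxc11 and Hoxc13. The lowest of them was Hoxc13 (10.1 ± 6.50 TPM), and the next gene below that limit was Hoxa5 (8.12 ± 3.36 TPM).

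**Figure D2:**
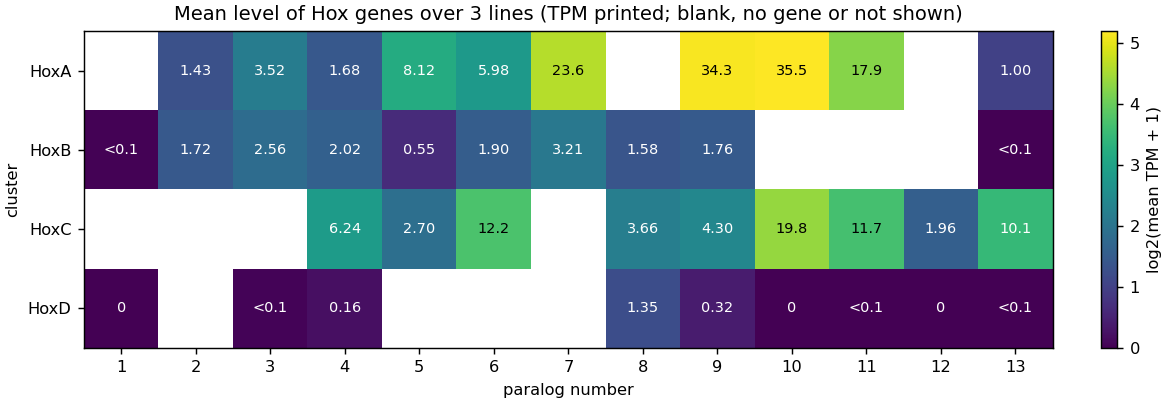
Mean level over the 3 lines of the Hox genes, by cluster (y axis) and paralog number (x axis). The colour is log2(mean TPM + 1), the numbers are mean TPM, and blank fields have no gene, or a gene that is not shown. The highest values are Hoxa10 (35.5 TPM) and Hoxa9 (34.3 TPM), and most of the HoxD row lies near 0.

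HoxA, on chromosome 6, had its highest levels from Hoxa7 to Hoxa11, and its gene at the 5′ end, Hoxa13, had the lowest mean of the cluster. Hoxa10, known for its part in limb and uterus patterning, was at 30.5, 28.3 and 47.8 TPM (35.5 ± 10.7 TPM), the highest mean of the 39 genes over all transcripts of a gene, but the sixth highest (10.1 TPM) over protein-coding transcripts alone. Hoxa9, a gene of trunk and blood progenitors, was at 27.6, 31.2 and 44.1 TPM (34.3 ± 8.68 TPM). Both were highest in line 72, while lines 66 and 67 lay close together and in opposite order for the 2 genes. Hoxa7 was at 20.7, 17.1 and 33.1 TPM (23.6 ± 8.40 TPM). Hoxa11, needed for the middle segment of the limb, was at 13.7, 11.7 and 28.3 TPM (17.9 ± 9.04 TPM). In these 2 genes line 72 stood above lines 66 and 67 by more than those lines differed.

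The other HoxA genes were lower. Hoxa5, which patterns the neck region and the lung, was at 8.05, 4.79 and 11.5 TPM, and Hoxa6 was at 6.61, 4.62 and 6.72 TPM. Hoxa3, a gene of throat organs such as the thymus, was at 3.94, 1.73 and 4.89 TPM. Thus the 3′ part of the cluster was also transcribed, at a lower level than the stretch from Hoxa7 to Hoxa11. Hoxa4 was at 1.20, 1.11 and 2.72 TPM, and Hoxa2, which patterns the skeleton of the second pharyngeal arch, at 0.967, 0.758 and 2.58 TPM. Hoxa13, the gene at the 5′ end and a gene of hands and feet, was at 0.561, 0.915 and 1.54 TPM, so the level fell from Hoxa11 to Hoxa13 in every line. The shape along the cluster was alike in the 3 lines, with paralogs 9 to 13 holding 62.3%, 69.5% and 64.9% of the HoxA level over all transcripts. In protein-coding transcripts alone this share was lower in every line, and Hoxa7 had the highest mean of the cluster (22.3 TPM).

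All 11 HoxA genes were highest in line 72, except that Hoxa6 was highest in line 66 in counts scaled by library total (CPM) or after scaling by TMM factors, DESeq2 size factors or the chromosome's median. Of all 18185 genes with more than 3 counts in every line 42.6% were highest in line 72, and of the other such genes of chromosome 6 58.9% were. The folds of line 72 over line 67 ran from 1.41 (Hoxa9) to 3.40 (Hoxa2), with a median of 2.40, and those of line 72 over line 66 from 1.02 (Hoxa6) to 2.74 (Hoxa13). For the summed HoxA level line 72 was 1.81 times line 67 and 1.61 times line 66, and line 66 was 1.12 times line 67. Line 67 was the lowest line for 9 of 11 HoxA genes, where the share was 35.1% of all genes and 34.4% of the other genes of chromosome 6. Hoxa9 and Hoxa13 were lowest in line 66. For Hoxa2, Hoxa4, Hoxa9 and Hoxa13 the count intervals of lines 66 and 67 overlapped. For Hoxa6 those of lines 66 and 72 overlapped (226 to 289 and 214 to 277 counts).

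**Figure D3:**
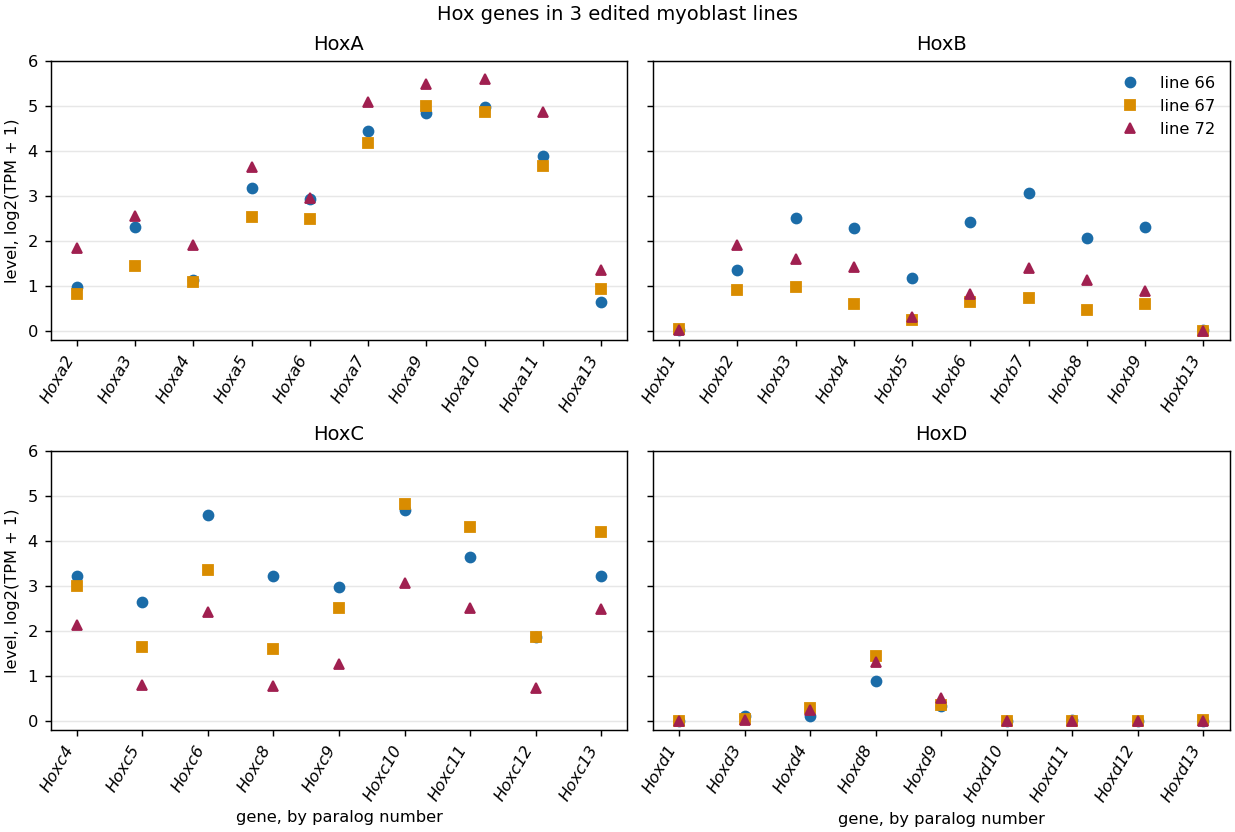
Level of the Hox genes, leaving out 1 HoxA gene, as log2(TPM + 1) on the y axis, in lines 66 (circles), 67 (squares) and 72 (triangles), with 1 panel a cluster and genes by paralog number on the x axis. The triangles are highest across HoxA and lowest across HoxC, and the circles are highest for 7 of the 8 HoxB genes with more than 3 counts in every line.

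HoxC (GRCm38 chr15:102921103-103036852) held the other 4 genes that averaged 10 TPM or more. Hoxc10, a gene of the lumbar region and the hindlimb, was at 24.6, 27.2 and 7.42 TPM (19.8 ± 10.8 TPM). Hoxc6, a gene of the thorax and the forelimb level, was at 23.0, 9.22 and 4.38 TPM (12.2 ± 9.66 TPM). Line 72 was the lowest for both, but line 67 stood with line 66 for Hoxc10 and between the other lines for Hoxc6. Hoxc11 was at 11.5, 18.7 and 4.72 TPM (11.7 ± 7.01 TPM). Hoxc13, known for its role in hair and nails, was at 8.37, 17.3 and 4.62 TPM (10.1 ± 6.50 TPM). For these 2 genes line 67 was the highest, ahead of line 66.

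The lower HoxC genes kept line 72 at the bottom. Hoxc4 was at 8.38, 6.95 and 3.39 TPM, Hoxc5 at 5.28, 2.11 and 0.721 TPM, and Hoxc9, a gene of the thoracic spinal cord and ribs, at 6.83, 4.68 and 1.38 TPM. Hoxc8, a neighbour of Hoxc9 that acts at the brachial level, was at 8.27, 2.001 and 0.717 TPM. Hoxc8 thus had the widest range of the cluster, with line 66 at 11.5 times line 72 and 4.13 times line 67. Hoxc12, the HoxC gene with the lowest mean, was at 2.62, 2.61 and 0.657 TPM.

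All 9 HoxC genes were lowest in line 72, against 23.3% of all genes with more than 3 counts in every line and 23.9% of the other such genes of chromosome 15. The summed HoxC level in line 66 was 3.53 times and in line 67 3.24 times that in line 72, while lines 66 and 67 differed 1.09-fold. Lines 66 and 67 nevertheless differed along the cluster. Hoxc4, Hoxc5, Hoxc6, Hoxc8 and Hoxc9 were higher in line 66, by 1.21 to 4.13 times, and Hoxc12 was equal within 1.01-fold. Hoxc10, Hoxc11 and Hoxc13 had ratios of line 66 to line 67 of 0.903, 0.615 and 0.485. For Hoxc10, at 30.8 and 34.6 CPM in these lines, the count intervals overlapped before scaling to the library totals but not after. Paralogs 4 to 8 held 45.4%, 22.3% and 32.9% of the HoxC level.

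HoxB (GRCm38 chr11:96194316-96368256) had the largest ratio between lines of its summed level (6.52), while HoxA and HoxC spanned more TPM and the largest ratio of a single gene was that of Hoxc8. Hoxb7 had the highest mean of the cluster, at 7.35, 0.665 and 1.62 TPM (3.21 ± 3.61 TPM). These levels stood on 410, 34 and 84 counts, whose exact Poisson 95% intervals, which cover counting error only, were 371 to 452, 23.5 to 47.5 and 67.0 to 104 counts. The intervals do not overlap, so the order of the lines for Hoxb7 was larger than counting error. Hoxb6 was at 4.39, 0.555 and 0.751 TPM, Hoxb9 at 3.92, 0.503 and 0.855 TPM, and Hoxb8, a gene that acts in blood cells and microglia, at 3.19, 0.370 and 1.17 TPM. Hoxb4, known from blood stem cells, was at 3.89, 0.505 and 1.65 TPM, and Hoxb3 at 4.69, 0.964 and 2.03 TPM. In each of these genes line 66 was the highest and line 67 the lowest. Hoxb5 followed the same order at a low level (1.25, 0.171 and 0.236 TPM). For Hoxb5 and Hoxb6 the count intervals of lines 67 and 72 overlapped (12.2 to 30.9 with 17.8 to 39.3 counts, and 38.1 to 67.3 with 50.8 to 83.7 counts), so the order of these 2 lines lay within counting error. Hoxb2 alone was highest in line 72, at 1.54, 0.875 and 2.74 TPM. Hoxb1, at the 3′ end, and Hoxb13, far to the 5′ side, had at most 3 counts in every line.

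Of the 8 HoxB genes with more than 3 counts in every line, 7 were highest in line 66 and 8 were lowest in line 67, of which Hoxb5 and Hoxb6 within counting error of line 72. Of all genes with more than 3 counts in every line, 30.5% were highest in line 66, and of the other such genes of chromosome 11 70.7% were. The corresponding shares lowest in line 67 were 35.1% of all genes and 59.1% of the other genes of chromosome 11. The direction of the HoxB genes was thus that of most genes of the chromosome. The summed HoxB level in line 66 was 6.52 times that in line 67 and 2.73 times that in line 72, and line 72 was 2.38 times line 67. For the single genes line 66 over line 67 ran from 1.76 (Hoxb2) to 11.05 (Hoxb7), with a median of 7.75. No HoxB gene reached 1 TPM in line 67, against 8 in line 66 and 5 in line 72. The sum of the 5 endothelial markers had the same order of lines as the HoxB sum (1.81, 0.726 and 1.25 TPM), with Tek at 0.937, 0.295 and 0.330 TPM, Kdr at 0.382, 0.133 and 0.199 TPM, Pecam1 and Cdh5 highest in line 72, and Emcn at 3 counts or fewer in every line. The study purified the myoblasts by FACS before RNA-seq, and the part of these markers in the HoxB difference was not tested. The mean of the summed HoxB level rests on line 66 and was 7.85 TPM without it.

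HoxD (GRCm38 chr2:74668310-74765142) was close to silent. Hoxd8 was the only HoxD gene that averaged 1 TPM or more, at 0.845, 1.71 and 1.49 TPM (1.35 ± 0.448 TPM), from 49, 124 and 124 counts. Hoxd9 was at 0.255, 0.266 and 0.426 TPM, and Hoxd4 at 0.0688, 0.217 and 0.180 TPM. For Hoxd9 the count intervals of all 3 lines overlapped and line 67 had the fewest counts (32.04, 31.04 and 50.6 counts), so that the order of lines lay within counting error. For Hoxd4 (6.83, 17.5 and 22.0 counts) the interval of line 67 overlapped those of both other lines. Its intervals of lines 66 and 72 overlapped before scaling to the library totals but not after. By TPM, line 66 was the lowest line for all 3 of these genes, as it was for 41.6% of all genes with more than 3 counts in every line, for 48.1% of the other such genes of chromosome 2, and for all 6 flanking genes examined around HoxD, where line 66 over line 67 ran from 0.772 to 0.918 and line 66 over line 72 from 0.697 to 0.913. The genes at the 5′ end, which act in the distal limb and the genital bud, were not detectable at this depth, with 0 counts in every line for Hoxd10 and Hoxd12, 1 count in line 66 for Hoxd11, and 1 count in line 67 for Hoxd13. Hoxd1, at the 3′ end, also had 0 counts in every line, for which the limit of detection was set at 3 counts a library, a one-sided limit apart from the 2-sided intervals above. The nearest genes outside the cluster that were at 10 TPM or more were expressed, with Lnpk at 28.8 ± 4.28 TPM and Mtx2 at 91.7 ± 16.3 TPM.

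By position along the clusters, the 8 genes of paralogs 1 to 3 held 5.24% ± 2.13 of the Hox level, the 15 genes of paralogs 4 to 8 held 32.7% ± 8.02, and the 16 genes of paralogs 9 to 13 held 62.1% ± 9.12 (SD, n = 3). The share of paralogs 9 to 13 was 52.9%, 71.2% and 62.0%, so it was the largest class in every line. Over all transcripts group 10 was the highest paralog group in every line, with 55.1, 55.6 and 55.2 TPM (55.3 ± 0.223 TPM). This sum hid opposite values, since Hoxa10 was highest and Hoxc10 lowest in line 72. The near equality held only in TPM over all transcripts. In protein-coding transcripts alone group 10 was at 33.2, 34.9 and 21.4 TPM (29.8 ± 7.33 TPM), which was the highest group in lines 66 and 67 but lay below group 7 (33.2 TPM), group 11 (33.0 TPM) and group 9 (24.1 TPM) in line 72. In CPM group 10 was at 62.8, 64.0 and 57.2. Group 11, Hoxa11 with Hoxc11, summed to 25.3, 30.4 and 33.0 TPM, and group 6 to 34.0, 14.4 and 11.8 TPM, where Hoxc6 set the order.

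Among the 8 Hox genes that averaged 10 TPM or more, 5 were over 2-fold apart between some pair of lines on the log2(TPM + 1) scale, namely Hoxa11, Hoxc6, Hoxc10, Hoxc11 and Hoxc13. Of all 8428 genes at such an average, 2.17% were. A gene can reach that average through its highest line, and of the 4 Hox genes at 10 TPM or more in every line 1, Hoxa11, was over 2-fold apart, against 1.17% of all 8048 such genes. The count rests on line 72 and on line 67, since it fell from 5 to 1 without line 72 and to 3 without line 67. Among the 31 Hox genes with more than 3 counts in every line, 26 were over 2-fold apart in TPM between some pair of lines, against 17.5% of all such genes. The pair of lines 66 and 67 gave 14 of 31 (9.41% of all genes), lines 66 and 72 gave 20 of 31 (9.71%), and lines 67 and 72 gave 20 of 31 (8.81%). The 5 genes never over 2-fold apart were Hoxa6, Hoxa7, Hoxa9, Hoxa10 and Hoxd9, of which Hoxa7, Hoxa9 and Hoxa10 lie side by side at the peak of HoxA.

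Some of the chromosomes that carry the clusters also differed between lines. Over genes that averaged 10 TPM or more and without the Hox genes, the median log2 ratio of line 66 to line 67 on chromosome 11 was 0.34 above that of all genes (699 genes, 1.27-fold), and that of line 66 to line 72 was 0.31 above. On chromosome 6 the ratio of line 72 to line 67 was 0.13 above that of all genes (394 genes, 1.10-fold), and the shift of line 66 to line 72 was -0.17. On chromosomes 2 and 15 the shifts lay between -0.05 and 0.01. The ratios of the HoxB and HoxA sums were larger than these shifts, while among single genes the ratio of line 66 to line 72 was 0.984 for Hoxa6 and, on the other side of 1 from the chromosome 11 shift, 0.564 for Hoxb2. After subtracting the shifts, the summed HoxB level in line 66 was 5.16 times that in line 67 and the summed HoxA level in line 72 was 1.65 times that in line 67. The part of these shifts in the Hox differences was not tested further.

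The genes that flank the clusters were examined next, taking the 3 nearest protein-coding genes at 10 TPM or more on each side, a rule chosen after the values were seen. Around HoxA, line 72 over line 67 ran from 1.005 (Scrn1) to 1.58 (Skap2). Around HoxB, line 66 over line 67 ran from 1.14 (Nfe2l1) to 1.46 (Snf8), below the ratio of each HoxB gene, of which Hoxb2 was the lowest at 1.76. Around HoxC, line 66 over line 72 ran from 0.713 (Cbx5) to 1.39 (Smug1) and line 67 over line 72 from 0.935 (Calcoco1) to 1.32 (Smug1), below the lowest HoxC ratios of 1.81 and 2.05. For line 66 over line 72, the HoxB flanks ran from 1.05 (Nfe2l1) to 1.33 (Snf8), which was above Hoxb2 at 0.564 and below the other 7 HoxB genes, the lowest of which was Hoxb3 at 2.32. The flanking genes of HoxA overlapped the HoxA genes in both ratios. For line 72 over line 67 they overlapped the ratios of Hoxa9 (1.41) and Hoxa6 (1.46). For line 66 over line 72 the HoxA flanks ran from 0.621 (Skap2) to 0.839 (Scrn1), against 0.620 for the summed HoxA level. In that ratio 5 of 11 HoxA genes lay below their flanks, Hoxa3 (0.807), Hoxa5 (0.698), Hoxa7 (0.624), Hoxa9 (0.626) and Hoxa10 (0.639) lay within them, and Hoxa6 (0.984) lay above.

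**Figure D4:**
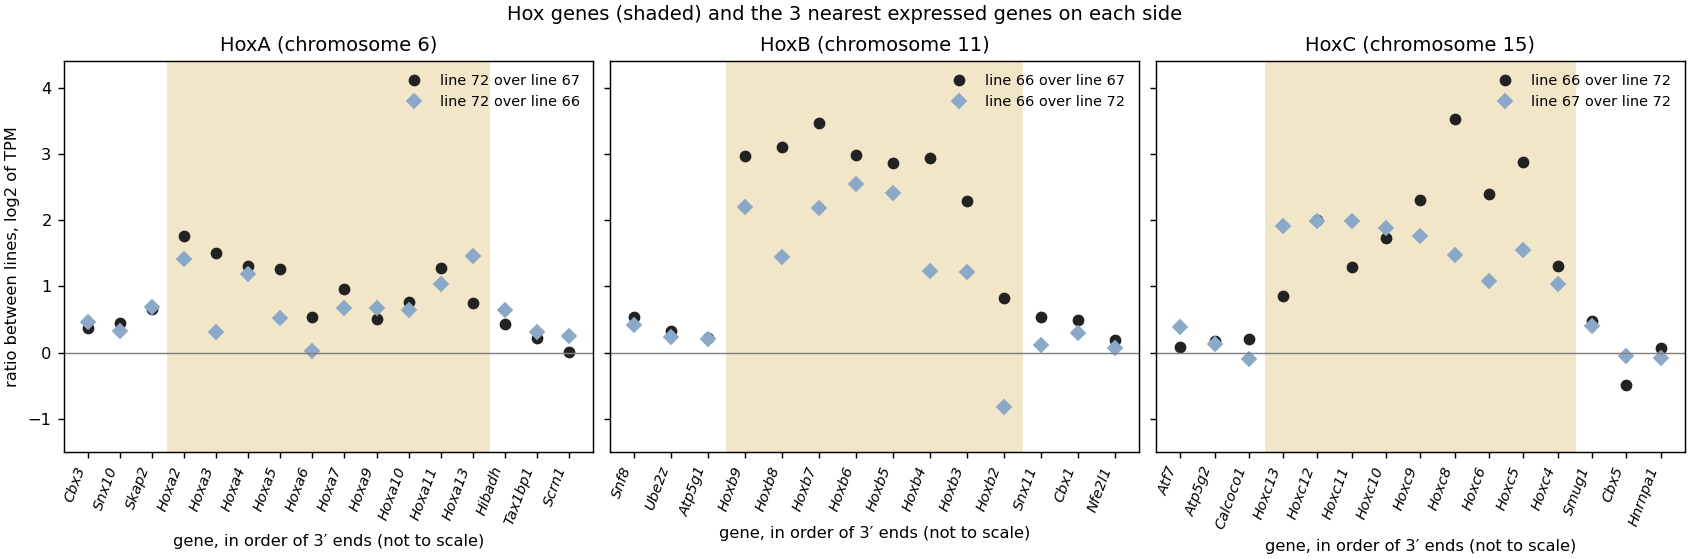
Ratio of TPM between lines, as log2 (y axis), for the HoxA, HoxB and HoxC genes with more than 3 counts in every line (shaded, leaving out 1 HoxA gene) and the 3 nearest genes at 10 TPM or more on each side, in order of their 3′ ends (x axis). Circles and diamonds are the 2 ratios named in each panel. HoxB genes stand above their flanks for line 66 over line 67 and HoxC genes for both of their ratios, and Hoxb2 falls below 0 for line 66 over line 72.

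Promoter sequences are shown for members that moved together within a cluster or were silent. RefSeq promoters on GRCm38.p6, from 250 bases before to 50 bases after a transcript start, were matched to 22 of the 39 Hox genes (24 promoters). The 250 bases before the start are printed 5′ to 3′ on the gene's strand with each CpG in capitals. They are given for the 2 starts of Hoxa10, for Hoxb4 and Hoxb8 (highest in line 66), for Hoxc4 (lowest in line 72) and for Hoxd10 (0 counts). Hoxa10 was highest in line 72, as was the transcript of its first start, while that of its second start was about equal in lines 66 and 72.
Hoxa10, chr6:52240855-52241104, minus strand: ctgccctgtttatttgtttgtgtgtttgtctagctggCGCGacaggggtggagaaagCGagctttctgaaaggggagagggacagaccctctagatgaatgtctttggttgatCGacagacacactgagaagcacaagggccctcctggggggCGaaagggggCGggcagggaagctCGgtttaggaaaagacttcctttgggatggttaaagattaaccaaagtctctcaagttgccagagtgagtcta
Hoxa10, chr6:52234940-52235189, minus strand: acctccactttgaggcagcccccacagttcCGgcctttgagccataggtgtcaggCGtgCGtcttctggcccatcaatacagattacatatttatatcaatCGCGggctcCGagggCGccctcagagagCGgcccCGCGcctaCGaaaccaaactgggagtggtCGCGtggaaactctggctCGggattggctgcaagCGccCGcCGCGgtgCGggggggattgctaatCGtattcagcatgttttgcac
Hoxb4, chr11:96318017-96318266, plus strand: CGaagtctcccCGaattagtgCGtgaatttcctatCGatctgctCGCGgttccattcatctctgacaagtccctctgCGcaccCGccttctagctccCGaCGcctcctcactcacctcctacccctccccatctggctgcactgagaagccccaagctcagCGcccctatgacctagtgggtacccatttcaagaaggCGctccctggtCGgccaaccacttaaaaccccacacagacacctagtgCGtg
Hoxb8, chr11:96281655-96281904, plus strand: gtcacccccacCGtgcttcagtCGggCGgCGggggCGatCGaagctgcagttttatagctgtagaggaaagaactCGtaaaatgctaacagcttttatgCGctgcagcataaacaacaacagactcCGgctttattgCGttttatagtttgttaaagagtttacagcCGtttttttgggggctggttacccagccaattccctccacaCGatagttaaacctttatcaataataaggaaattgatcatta
Hoxc4, chr15:103034145-103034394, plus strand: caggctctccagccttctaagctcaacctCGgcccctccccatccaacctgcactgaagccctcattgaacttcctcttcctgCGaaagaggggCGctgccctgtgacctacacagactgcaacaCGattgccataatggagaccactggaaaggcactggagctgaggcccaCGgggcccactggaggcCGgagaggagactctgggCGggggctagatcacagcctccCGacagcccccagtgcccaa
Hoxd10, chr2:74691641-74691890, plus strand: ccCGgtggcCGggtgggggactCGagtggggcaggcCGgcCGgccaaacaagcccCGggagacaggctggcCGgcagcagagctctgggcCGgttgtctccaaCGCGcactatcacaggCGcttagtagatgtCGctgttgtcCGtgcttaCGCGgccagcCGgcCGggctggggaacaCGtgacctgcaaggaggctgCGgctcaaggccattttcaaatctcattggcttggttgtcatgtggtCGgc

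In the full windows, these promoters held 12 and 21 CpGs at Hoxa10, 14 at Hoxb4, 13 at Hoxb8, 9 at Hoxc4 and 22 at Hoxd10. The 24 Hox promoters had a median of 14.5 CpGs, against 7 over all 32851 promoters of the table, and ranged from 4 to 45. Both low and high genes spanned a range, with 22 and 37 CpGs at Hoxd10 and Hoxd13, which had 0 to 1 counts, but 4 at Hoxd4 and at 1 of the 2 Hoxd11 starts, and with 4 at Hoxa9 but 21 at 1 of the 2 Hoxa10 starts. The motif TGATNNAT, the core recognised by Hox proteins with a Pbx partner, was searched on both strands and found in 4 of the 24 promoters (16.7%), those of Hoxa2, Hoxb1 and Hoxb8 and 1 of the 2 of Hoxd11, against 8.85% of all promoters. A match of letters is not a binding site.

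The transcripts of the 8 highest Hox genes differed in their share of protein-coding forms. For Hoxc10, Hoxc11, Hoxc13 and Hoxa11 the whole level fell to protein-coding transcripts, and for Hoxa7 93.4% to 95.6% did. For Hoxa10 the share was 28.3%, 26.9% and 29.3%, for Hoxa9 60.6%, 52.1% and 48.7%, and for Hoxc6 69.0%, 59.4% and 52.9%. Protein-coding Hoxa10 was thus at 10.1 ± 3.44 TPM and protein-coding Hoxa9 at 18.2 ± 2.88 TPM. By protein-coding level the order was Hoxa7 (22.3 TPM), Hoxc10 (19.8 TPM), Hoxa9, Hoxa11 (17.9 TPM), Hoxc11 (11.7 TPM) and then Hoxa10. The Hoxa10 transcript with the highest level, annotated as a processed transcript, starts at position 52233324 within the gene and lacks both first coding exons, and was at 20.9, 19.5 and 30.6 TPM. The protein-coding transcript that starts at 52240854, the first of the 2 printed Hoxa10 promoters, was at 7.09, 6.43 and 12.5 TPM, and the one that starts at 52234939, the second, was at 1.55, 1.19 and 1.52 TPM. The first of these and the processed transcript were highest in line 72. The second was about equal in lines 66 and 72 (203 and 185 estimated counts). Since the transcripts of a gene share exons, these values rest on how the authors' program split the reads.

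**Figure D5:**
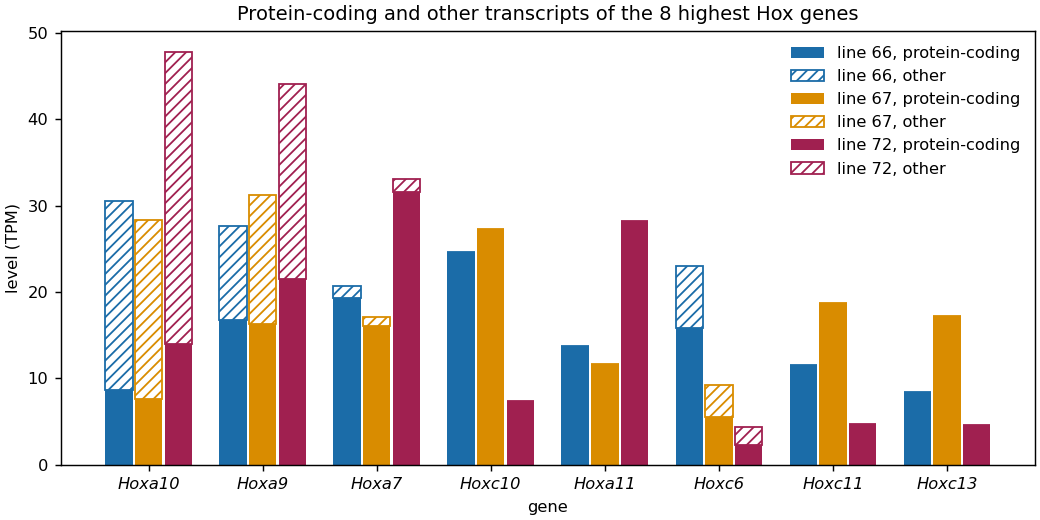
Level in TPM (y axis) of the 8 Hox genes that averaged 10 TPM or more (x axis) in each line. Filled bars are protein-coding transcripts and hatched bars other transcripts of the same gene. Other transcripts held most of Hoxa10 in every line and none of Hoxc10, Hoxa11, Hoxc11 and Hoxc13.

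Within the clusters and 50 kb to each side lay 30 other annotated genes, of which 9 had more than 3 counts in every line and 16 had at most 3 counts in every line. The highest were Hoxa11os, the antisense partner of Hoxa11, at 12.7, 16.2 and 32.6 TPM, and Hotairm1, a noncoding RNA of the HoxA cluster, at 11.1, 7.003 and 15.1 TPM. Both were highest in line 72, as the HoxA genes were. Hotair, a noncoding RNA between Hoxc11 and Hoxc12, was at 1.17, 3.38 and 0.996 TPM, highest in line 67 like its neighbour Hoxc11. Hottip, at the 5′ end of HoxA, was at 0 counts in every line. The libraries came from a stranded kit, but the strand setting of the counting is not given, and 33.9% of the 31-base words of Hoxa11 also occur in Hoxa11os. The same holds for Hoxb3, of which 47.3% of words occur in no other gene, and for Hoxd3 with 38.8%, Hoxd4 with 50.9%, Hoxb2 with 73.5%, Hoxa3 with 74.0% and Hoxa7 with 79.5%, so that the split of reads between these genes and their overlapping partners is uncertain. For Hoxb4, Hoxb6, Hoxb7, Hoxb8, Hoxb9 and Hoxc6 this share was between 98.2% and 99.9%.

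Genes known to act with the Hox genes were examined in the same lines. The TALE cofactors are homeodomain proteins that bind DNA together with Hox proteins, and all 9 were at 1 TPM or more in every line, from Pbx2 (35.3 ± 5.22 TPM) to Meis1 (4.96 ± 2.09 TPM) and Pbx4 (3.50 ± 0.132 TPM). None of the 9 was over 2-fold apart between lines on the log2(TPM + 1) scale, and Meis1 came closest, at 3.81, 7.37 and 3.69 TPM. All 8 genes of the MLL complex, which keeps Hox genes active through methylation of histone H3, were at 1 TPM or more, from Psip1 (162 ± 19.4 TPM) to Kmt2a (9.96 ± 0.548 TPM), and 0 were over 2-fold apart. The 6 ParaHox genes, relatives of the Hox genes that include the Hox regulators Cdx1, Cdx2 and Cdx4, had at most 3 counts in every line, and 5 of them had 0. Of the genes that set limb type, the hindlimb gene Tbx4 was at 1.28, 0.564 and 1.70 TPM, the forelimb gene Tbx5 had 3.48, 3.02 and 2.01 estimated counts, and the hindlimb gene Pitx1 had 0 counts in every line.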

How the data were processed

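Poly-A RNA of 3 edited Dmdmdx; Pax7-nGFP myoblast lines was sequenced by the authors from stranded libraries, using RNA with a RIN above 8. Per transcript, the deposited tables hold an estimated count by the authors' program, in which reads that fit several transcripts are split between them, with no normalization. The deposited TPM values are the estimated counts divided by effective length and scaled to 1000000 per library. The submitters' processing notes name bcl2fastq 2.20, fastp 0.20, kallisto 0.46.1 and the build GRCm39, with no role or order. The annotation release and the strand setting are not given in the sources used here. Transcripts were matched by identifier to GENCODE M21, whose coordinates, printed here, are on GRCm38. Of 121798 transcripts 1112 had no match (between 0.493% and 0.535% of the counts) and were left out, and both units were summed per gene (35562 genes). Libraries differed by more than sampling noise (chi-square over its degrees of freedom between 53.1 and 87.6).

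With 1 library a line no test was run. A gene was called over 2-fold apart from the ratio of TPM + 1 where a gene averaged 10 TPM or more, or from the ratio of TPM where every line had more than 3 counts, and shares over all genes are given beside the counts. Intervals are exact Poisson 95% intervals of counts that were not scaled to the library totals. Alternatives used counts scaled by library total (CPM), TMM factors (edgeR 4.0.16), DESeq2 1.42.0 size factors, protein-coding transcripts alone, other limits, the chromosome's median, and leaving out each line. The fold counting was checked on made-up counts with known changes. The members, lists, cut-offs and motif were chosen with earlier results of these data known. Values in every line were due for Hox genes averaging 10 TPM or more, or 1 TPM or more and over 2-fold apart. Scripts used Python 3.11.15, pandas 2.3.3 and R 4.3.3. The single values of 1 Hox gene and 1 cofactor are not reported here, while counts and sums over their lists include them.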

Additional observations from a re-analysis of the deposited data

How the results depend on the processing

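Of 118 values under alternatives, 101 stayed within 1 SD of the lines, within 1.5 times for a count, or, for a fold between 2 lines, within the 95% binomial interval of its summed counts, and 17 moved. By these rules sums and shares could not move with 1 line left out, since a mean of 3 lines then shifts by less than 1 SD. Nor could the counts of genes highest or lowest in a line when another line was left out. These entries among the 101 therefore say nothing on stability. None of the recomputed folds between cluster sums, listed below, turned below 1. Among single genes Hoxa6 passed from line 72 to line 66 as its highest line in 4 alternatives, which left 10 of 11 HoxA genes highest in line 72. The 15 Hox genes at 1 TPM or more in every line became 27 at 0.5 TPM and 31 with more than 3 counts in every line. The 5 over 2-fold apart among those averaging 10 TPM or more became 8 at 1.5-fold, 19 among those averaging 1 TPM or more, and 26 with more than 3 counts in every line and no pseudocount, the last chosen after seeing the data. With 1 line left out they were 1 to 4, with 3 without line 67 and 1 without line 72. The folds of the cluster sums were also recomputed after seeing the data. HoxA in line 72 over line 67 was 1.81 as reported, 1.93 in protein-coding transcripts and 1.65 after subtracting the chromosome's median. HoxB in line 66 over line 67 was 6.52 as reported, 5.62 in CPM, 5.65 with DESeq2 size factors and 5.16 after subtracting the chromosome's median. HoxC in line 66 over line 72 was 3.53 as reported, 3.37 in CPM and 3.46 with DESeq2 size factors. In line 67 over line 72 it was 3.24 as reported, 3.40 in CPM and 3.47 with DESeq2 size factors. In these 2 units line 67 thus stood slightly above line 66 for HoxC, where line 66 was 1.09 times line 67 as reported. Without 1 line the mean HoxA sum was 110 to 152 TPM, HoxB 7.85 to 20.7 TPM, HoxC 59.4 to 94.8 TPM and HoxD 1.68 to 2.17 TPM. No paired analysis was possible because there is only 1 group. At this depth, genes with 3 counts or fewer, such as most of HoxD, could not be told from 0.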
